A study of Rattus norvegicus with 18 samples.

Results

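The coagulation and fibrinolysis genes described here are Plau, Plat, Plaur, F3, F10, F13a1, Tfpi, Thbd and Kng1, 9 of the 30735 genes in the deposited count table. They were matched by symbol, each to 1 gene, and they were picked by name for plasminogen activation, thrombin control and kininogen with results of these data already known. Their values, fold changes and calls are therefore given as a description, with no p-value for any of them. Cerebral cortex of adult Sprague Dawley rats aged 8 to 10 weeks was used for RNA sequencing, with 18 rats, 1 library from each, and 6 rats per group (sham, SAH 1d, SAH 7d). Subarachnoid hemorrhage (SAH), bleeding into the space around the brain, was made by perforating an artery from within the vessel, and the cortex was taken 1 or 7 days later. Sham rats had the surgery without the perforation, and the time at which their cortex was taken is not given. The study's methods name the whole cortex of the operated side, while the labels name both sides and mice, although the genes carry rat identifiers. Neither source states the animals' sex.

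Blood clots when tissue factor (F3), a protein of cells outside the bloodstream, meets factor VII and starts a chain of proteases in which factor X (F10) makes thrombin. Thrombin cuts fibrinogen into fibrin, and factor XIII, whose catalytic A chain is encoded by F13a1, crosslinks the fibrin. Tissue factor pathway inhibitor (Tfpi) blocks the first steps, and thrombomodulin (Thbd) on vessel walls turns thrombin towards activating the anticoagulant protein C. The clot is dissolved by plasmin, which is made from plasminogen by urokinase (Plau), working at its receptor (Plaur), and by tissue plasminogen activator (Plat), which neurons also release. Kininogen (Kng1) carries the peptide bradykinin, which widens vessels and makes them leaky.

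Total counts per library ranged from 27270026 to 38271014, and 18444 genes passed the filter on low counts, all 9 among them. Kng1 passed it through the SAH 1d libraries, since its count reached 10 in 6 of 6 SAH 1d libraries, in 1 of 6 SAH 7d libraries and in no sham library. Levels are given as counts per 1e+06 counts (CPM) on TMM-scaled library sizes. The 7 neuron markers were detected in every library, and their summed level lay between 2085 and 8634 CPM. The libraries SAH 1d-3 and SAH 7d-5 each stood apart from the others of their groups, and values without them are given where leaving 1 of them out moved a fold by over 1.5 times. SAH 1d-3 was the highest library of its group for 8 of the 9 genes, all but F10, and SAH 7d-5 was the highest of its group for 9 of 9. SAH 7d-5 also had the lowest neuron marker sum, 2085 CPM, against 5849 to 7738 CPM in the other SAH 7d libraries.

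**Figure D1:**
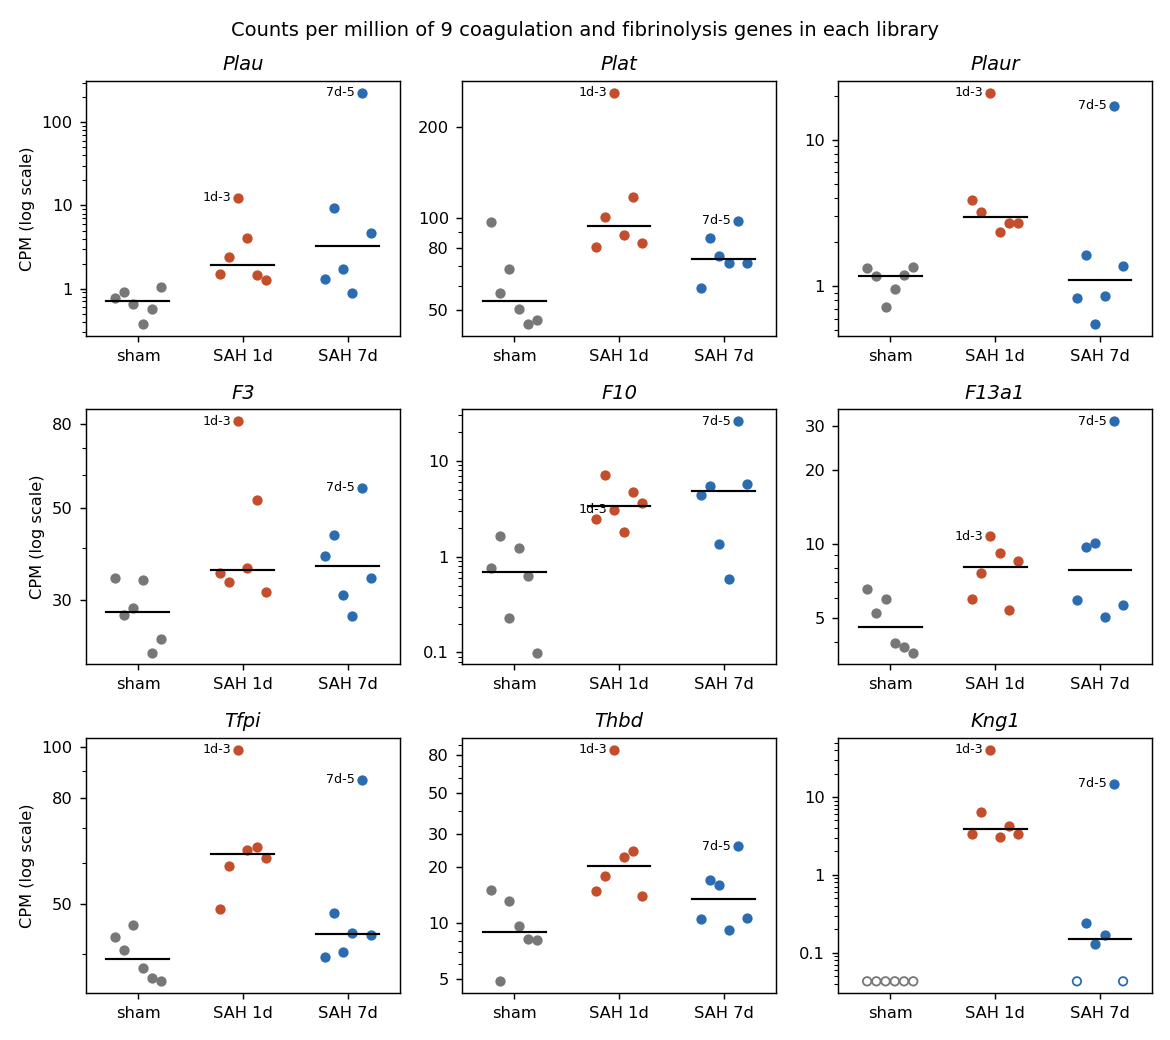
Each panel plots 1 gene, with CPM on a log axis (its range differs between panels) against group, 1 point per library and a line at the group median where that is above 0. Open circles mark libraries without a count for Kng1, drawn below the axis values. Plau, Plaur, F10, Tfpi and Kng1 lie above every sham library in all 6 SAH 1d libraries, and one of the labelled libraries, 1d-3 (SAH 1d-3) or 7d-5 (SAH 7d-5), is the top point of each panel.

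At SAH 1d all 9 genes were higher than in sham in the fitted comparison. 9 of 9 had an adjusted p under 0.05 in edgeR's quasi-likelihood test, where 25.4% of all tested genes were called and 14.9% were called higher. With all 18 libraries in one fit 5 of 9 were called, beside 13.3% of all tested genes, and Plau, Plaur, F3 and F13a1 lost the call. The genes were chosen with this comparison known, so nothing is read from these counts. 6 of the 9, Plau, Plat, Plaur, F10, Thbd and Kng1, also differed by at least 2-fold, as 5.57% of all tested genes did in the higher direction, and 4 of the 9 did without SAH 1d-3. The median log2 fold change of the 9 was 1.62, beside 0.0086 over all tested genes, and 0.94 without SAH 1d-3. In 5 of 9 the SAH 1d and sham libraries did not overlap in CPM with SAH 1d on top, which held for 7.89% of all tested genes. Bulk tissue cannot tell more cells of a type from more RNA per cell, and the same holds for fewer cells and less RNA per cell.

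**Figure D2:**
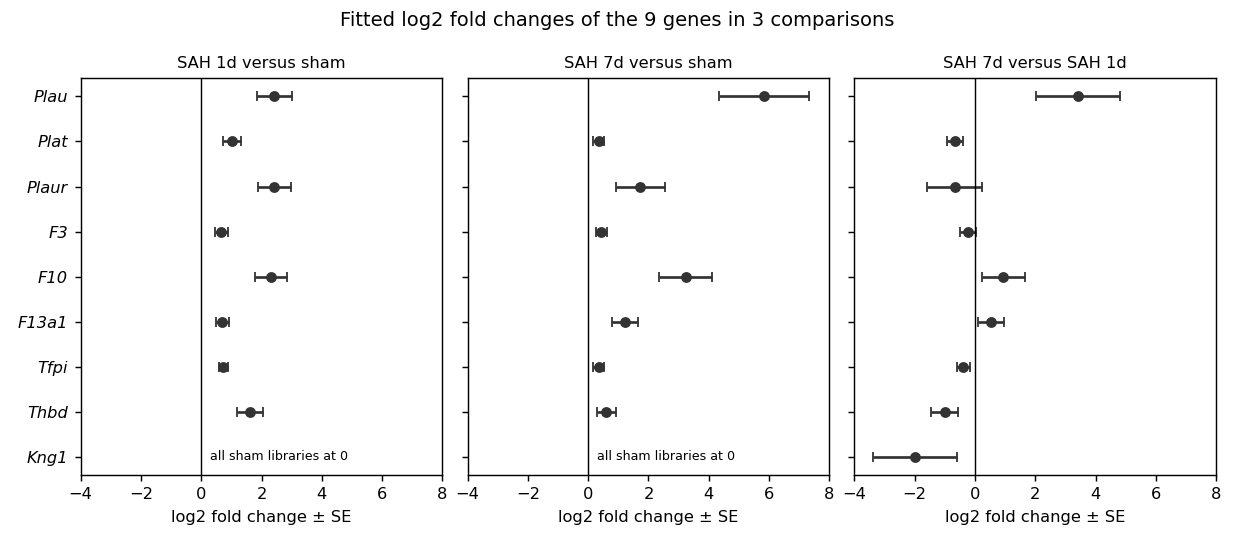
Fitted log2 fold change of each gene (points) with its standard error (bars) in SAH 1d versus sham, SAH 7d versus sham and SAH 7d versus SAH 1d. No fold is drawn for Kng1 against sham, where every library was at 0. At 1 day the 8 points run from 0.67 for F3 to 2.43 for Plau, and the longest bar of the other comparisons is that of Plau at 7 days, 1.49.

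The plasminogen activators and their receptor are described first. Upstream sequence was taken from RefSeq promoters on the rat GRCr8 assembly, which is not the build of the counts. Windows of 250 bases before the start site were matched by symbol for 5 of the genes, F10, F13a1, Plau, Plaur and Tfpi, and not for F3, Plat and Thbd, while Kng1 was left out because its symbol is also a synonym of other kininogen genes there. The windows of the enzyme Plau and of its receptor Plaur are shown because both genes were higher at 1 day and differ in the motifs found. Plau lies at chr15:3511988-3512237 on the minus strand and Plaur at chr1:89181113-89181362 on the plus strand, both written 5′ to 3′, with capitals marking a GC box in Plau and an AP-1 motif in Plaur.
Plau: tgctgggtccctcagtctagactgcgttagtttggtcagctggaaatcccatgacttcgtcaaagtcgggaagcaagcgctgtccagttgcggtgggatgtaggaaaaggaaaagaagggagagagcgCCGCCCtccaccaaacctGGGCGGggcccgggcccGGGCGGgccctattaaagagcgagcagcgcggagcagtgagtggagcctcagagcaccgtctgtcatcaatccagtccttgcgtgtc
Plaur: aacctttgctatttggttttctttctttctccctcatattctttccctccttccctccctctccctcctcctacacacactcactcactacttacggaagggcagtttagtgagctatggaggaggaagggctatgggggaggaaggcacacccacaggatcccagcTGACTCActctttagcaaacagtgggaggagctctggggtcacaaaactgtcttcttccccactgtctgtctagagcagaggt
Both strands were searched. The GC box (GGGCGG) occurred 3 times in Plau and once in 1 of the 2 windows of Tfpi, and in 30.5% of all 33469 promoter windows of this length. AP-1 (TGANTCA) was found in Plaur alone among the 5, starting 83 bases before the start site, and in 6.34% of all windows. A kappa-B motif was found in F10, starting 150 bases before its start site, and in 3.54% of all windows. A CCAAT box (CCAAT) was found in both windows of Tfpi and in 34% of all windows, and a STAT motif (TTCNNNGAA), present in 7.67%, was in none of the 5. A match is a description of these letters and not a bound site.

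Plau (ENSRNOG00000010516), which encodes the urokinase enzyme, had between 0.371 and 1.06 CPM in the sham libraries, with a median of 0.705. At SAH 1d the lowest, median and highest values were 1.26, 1.94 and 12.4 CPM. Every SAH 1d library lay above every sham library, and the highest, SAH 1d-3, was 3.06 times the next. This gave a log2 fold change of 2.43 (SE 0.57, n = 6 per group), and 1.56 (SE 0.35) without SAH 1d-3.

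Plat (ENSRNOG00000019018), the tissue-type activator, had 44.9, 53.8 and 97.7 CPM as the lowest, median and highest of the sham libraries. The SAH 1d libraries had 80.9, 94.8 and 259 CPM in the same order. The groups overlapped, with 3 of 6 SAH 1d libraries above the highest sham library, sham-1. Its log2 fold change was 1.00 (SE 0.30), and 0.63 (SE 0.18) without SAH 1d-3. Plat lost its call when any of sham libraries 2, 4, 5 or 6 was left out.

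Plaur (ENSRNOG00000037931), the urokinase receptor on the cell surface, had 0.720, 1.18 and 1.35 CPM at the lowest, median and highest of sham. At SAH 1d the values were 2.36, 2.96 and 21.0 CPM. All 6 SAH 1d libraries were above sham, and SAH 1d-3 was 5.40 times the next library. The log2 fold change was 2.42 (SE 0.56), and 1.40 (SE 0.20) without SAH 1d-3.

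Of the coagulation factors, F3 (ENSRNOG00000011800), which encodes tissue factor, had 22.3, 28.0 and 33.8 CPM at the lowest, median and highest of sham, and 31.4, 35.3 and 81.2 CPM at SAH 1d. The groups overlapped in CPM and did not overlap in the deposited FPKM (fragment counts scaled by transcript length and library depth), where sham ended at 17.2 and SAH 1d began at 17.7. Its log2 fold change, 0.67 (SE 0.22), was the smallest of the 8 that can be given, and the call was lost when any of sham libraries 2 to 6 or SAH 1d-5 was left out. Without SAH 1d-3 the log2 fold change was 0.41 (SE 0.14).

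F10 (ENSRNOG00000033444), the protease that makes thrombin, had 0.0991, 0.697 and 1.66 CPM at the lowest, median and highest of sham. At SAH 1d it had 1.83, 3.41 and 7.23 CPM, with SAH 1d-2 and not SAH 1d-3 on top. The groups did not overlap. F10 had a log2 fold change of 2.31 (SE 0.53), and 2.36 (SE 0.53) without SAH 1d-3, so F10 was the gene of the 9 whose change at 1 day was as large without that library.

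F13a1 (ENSRNOG00000015957), whose chain is made by macrophages and platelets, had 3.60, 4.59 and 6.56 CPM at the lowest, median and highest of sham, and 5.38, 8.05 and 10.7 CPM at SAH 1d. The groups overlapped. Its log2 fold change was 0.70 (SE 0.20), and 0.59 (SE 0.19) without SAH 1d-3. The call was lost when sham library 4, 5 or 6 was left out. The 7 platelet markers summed to 1.36 to 3.39 CPM in sham and 1.67 to 3.54 CPM at SAH 1d, with up to 3 of the 7 at 0 in a library. Neither of the 2 tested was called, with 1 at an unadjusted p under 0.05. The part of platelets in the level of F13a1 was not tested.

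Among the genes that restrain the cascade, Tfpi (ENSRNOG00000005039) had 35.5, 39.2 and 45.5 CPM at the lowest, median and highest of sham, and 48.9, 62.3 and 98.9 CPM at SAH 1d. All 6 SAH 1d libraries were above all sham libraries. The log2 fold change was 0.73 (SE 0.14), and 0.58 (SE 0.09) without SAH 1d-3. Tfpi thus had one of the smaller fold changes and the smallest standard error of the 8.

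Thbd (ENSRNOG00000004687), the thrombin receptor of vessel walls, had 4.84, 8.87 and 15.0 CPM at the lowest, median and highest of sham, and 13.9, 20.2 and 85.4 CPM at SAH 1d. The groups overlapped in CPM and were apart in FPKM. SAH 1d-3 was 3.49 times the next library. The log2 fold change was 1.62 (SE 0.45), and 0.94 (SE 0.25) without SAH 1d-3. Of the 5 endothelial markers in the table only Cdh5, the vascular cadherin, was called, with a log2 fold change of 1.01 (SE 0.25) and an adjusted p of 0.0106. The endothelial sum was 106 to 187 CPM in sham and 138 to 271 CPM at SAH 1d, where SAH 1d-3 was again the highest and the next was 165 CPM, and its part in the level of Thbd was not tested.

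Kng1 (ENSRNOG00000030387) had no count in any sham library, while SAH 1d libraries had 3.04, 3.84 and 40.6 CPM at the lowest, median and highest. Against a floor of 3 counts over the sham group, the SAH 1d mean was at least 605-fold higher, and at least 244-fold higher without SAH 1d-3. The rat has further near-identical kininogen genes, which were not analysed here, so reads of these copies may be counted under Kng1 or lost, and its value is uncertain in that respect. Liver is the usual source of kininogen. The 5 liver markers in the table summed to 6.29 to 14.2 CPM in sham and 2.33 to 10.6 CPM at SAH 1d. Up to 3 of the 5 were at 0 in a library and 2 passed the filter, and the part of liver RNA in the level of Kng1 was not tested.

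At SAH 7d none of the 9 genes was called against sham, and neither was any other gene (0% of 18444, beside 2842, or 15.4%, at an unadjusted p under 0.05). 5 of the 9 were at an unadjusted p under 0.05. DESeq2 called 459 genes in all and 1 of the 6 members to which it gave an adjusted p, F10, and gave none for Plau, Plaur and Kng1. All 9 fitted values were above sham, with a median log2 fold change of 1.23, beside -0.0039 over all tested genes. Without SAH 7d-5 the median was 0.38 and 1 of the 9, Plaur, was below sham. None of the 9 was apart from sham, where 0.797% of all tested genes were apart and higher.

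Plau had 0.890, 3.22 and 228 CPM at the lowest, median and highest of SAH 7d. The highest, SAH 7d-5, was 24.5 times the next, 9.32 CPM, while 5 of 6 libraries lay above the highest sham library. The log2 fold change against sham was 5.84 (SE 1.49), and 2.34 (SE 0.56) without SAH 7d-5. Plaur ran from 0.549 over a median of 1.11 to 17.1 CPM, and the next below SAH 7d-5 was 1.64 CPM. Its log2 fold change against sham was 1.74 (SE 0.80) and turned to -0.08 (SE 0.29) without SAH 7d-5. The protease and its receptor thus stood differently in the other 5 libraries, Plau mostly above sham and Plaur within or near it, which is given as values and was not tested.

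F10 had 0.582, 4.93 and 26.2 CPM at SAH 7d, and F13a1 had 5.03, 7.80 and 31.5 CPM. Both were highest in SAH 7d-5 and lowest in SAH 7d-4. The log2 fold change of F10 was 3.24 (SE 0.88), and 2.19 without SAH 7d-5, and that of F13a1 was 1.23, and 0.59 without it. F3 had 27.4, 36.1 and 56.0 CPM, with a log2 fold change of 0.44.

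Tfpi had 39.6, 43.8 and 86.5 CPM at SAH 7d, Thbd had 9.10, 13.3 and 25.8 CPM, and Plat had 59.4, 73.4 and 98.2 CPM. The log2 fold changes against sham were 0.35, 0.60 and 0.34. In each of these the SAH 7d libraries overlapped sham, and their medians lay between those of sham and SAH 1d. Kng1 was at 0 in 2 of 6 SAH 7d libraries, with a median of 0.150 CPM and 14.7 CPM in SAH 7d-5, 60.6 times the next. Its SAH 7d mean was at least 151-fold above the sham floor, and at least 6.45-fold without SAH 7d-5.

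Between SAH 7d and SAH 1d none of the 9 was called by edgeR with all 12 libraries, where 1.37% of all tested genes were. 3 of the 9 were at an unadjusted p under 0.05, beside 14.7% of all tested genes, none of the 9 was apart between the groups, beside 3.05%, and DESeq2 called none of the 6 to which it gave an adjusted p. Plau, F10 and F13a1 had positive log2 fold changes, 3.43 (SE 1.39), 0.94 and 0.53, and the other 6 had negative ones. Without SAH 7d-5 the log2 fold changes were -0.12 for Plau, -0.14 for F10 and -0.13 for F13a1. Without SAH 7d-5 and SAH 1d-3 together F10 and F13a1 were again below 0, at -0.19 and -0.013, while Plau was at 0.75. Leaving out SAH 1d-3 alone gave 4.30 for Plau, 0.35 for Plaur in place of -0.67, -0.33 for Thbd and -0.66 for Kng1. Without SAH 7d-5, 3 of 9 were called lower at SAH 7d, where 8.38% of all tested genes were called in either direction. They were Plaur, with a log2 fold change of -2.52 (SE 0.65) in place of -0.67, Tfpi, with -0.62 (SE 0.15) in place of -0.39, and Kng1, with -6.49 (SE 1.08) in place of -1.98. Thbd had -1.01 (SE 0.46) with all libraries and -1.25 without SAH 7d-5, and was not called in either fit. The comparisons with SAH 1d share its 6 libraries, and those with sham share the sham libraries, so they are not independent of each other.

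**Figure D3:**
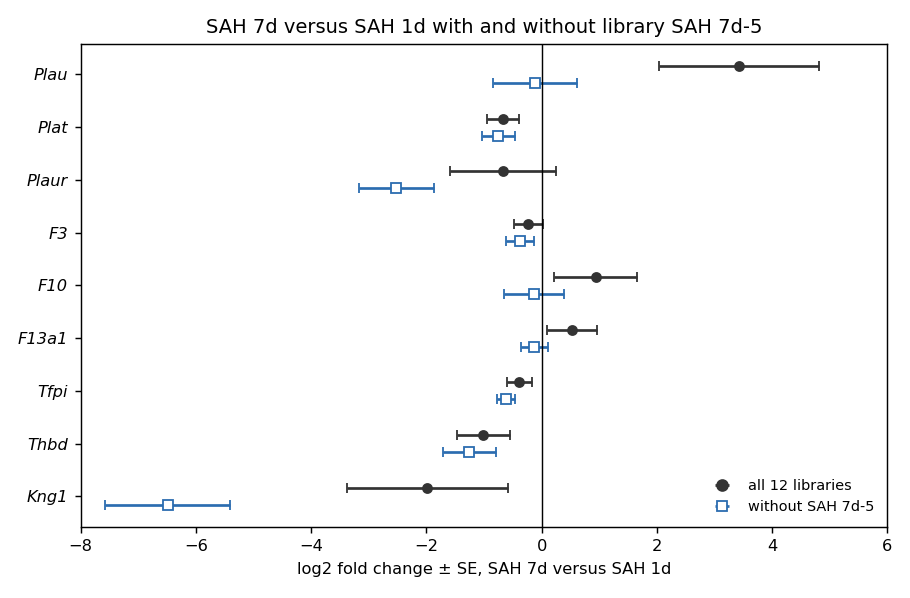
Log2 fold change of each gene in SAH 7d versus SAH 1d with its standard error, from all 12 libraries (filled circles) and without SAH 7d-5 (open squares). Plau moves from 3.43 to -0.12 and Kng1 from -1.98 to -6.49, while Thbd moves only from -1.01 to -1.25.

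Some marker lists of other cells were the highest of their group in SAH 1d-3, in SAH 7d-5 or in both. The 4 monocyte markers in the table (Lyz2, S100a4, Ms4a7 and Cd14) summed to 40.7 to 66.4 CPM in sham, 81.3 to 617 CPM at SAH 1d and 72.5 to 8092 CPM at SAH 7d. The highest were SAH 1d-3 and SAH 7d-5, and the next were 110 and 223 CPM. In SAH 1d versus sham 3 of the 4 were called higher, and 1 of the 4 was at 0 in 1 sham and in 1 SAH 1d library. The 8 neutrophil markers summed to 1.92 to 7.38 CPM in sham, 6.76 to 71.3 CPM at SAH 1d and 3.63 to 220.5 CPM at SAH 7d, again with SAH 1d-3 and SAH 7d-5 highest and with up to 6 of the 8 at 0 in a library. Microglia markers reached 2599 CPM in SAH 7d-5 and 284 to 500 CPM in sham, border macrophage markers 359 CPM and 19.7 to 48.1 CPM, and meningeal fibroblast markers 2425 CPM and 169 to 363 CPM. In SAH 1d-3 microglia markers were at 339 CPM, the lowest of SAH 1d, where the highest was 401 CPM. Border macrophage markers in SAH 1d-3 were at 37.7 CPM, within the SAH 1d range of 25.0 to 44.7 CPM. Meningeal fibroblast markers in SAH 1d-3 were at 371 CPM, the highest of SAH 1d. The 7 neuron markers were all called lower in SAH 1d versus sham. The part of these cells in the levels of the 9 genes was not tested.

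**Figure D4:**
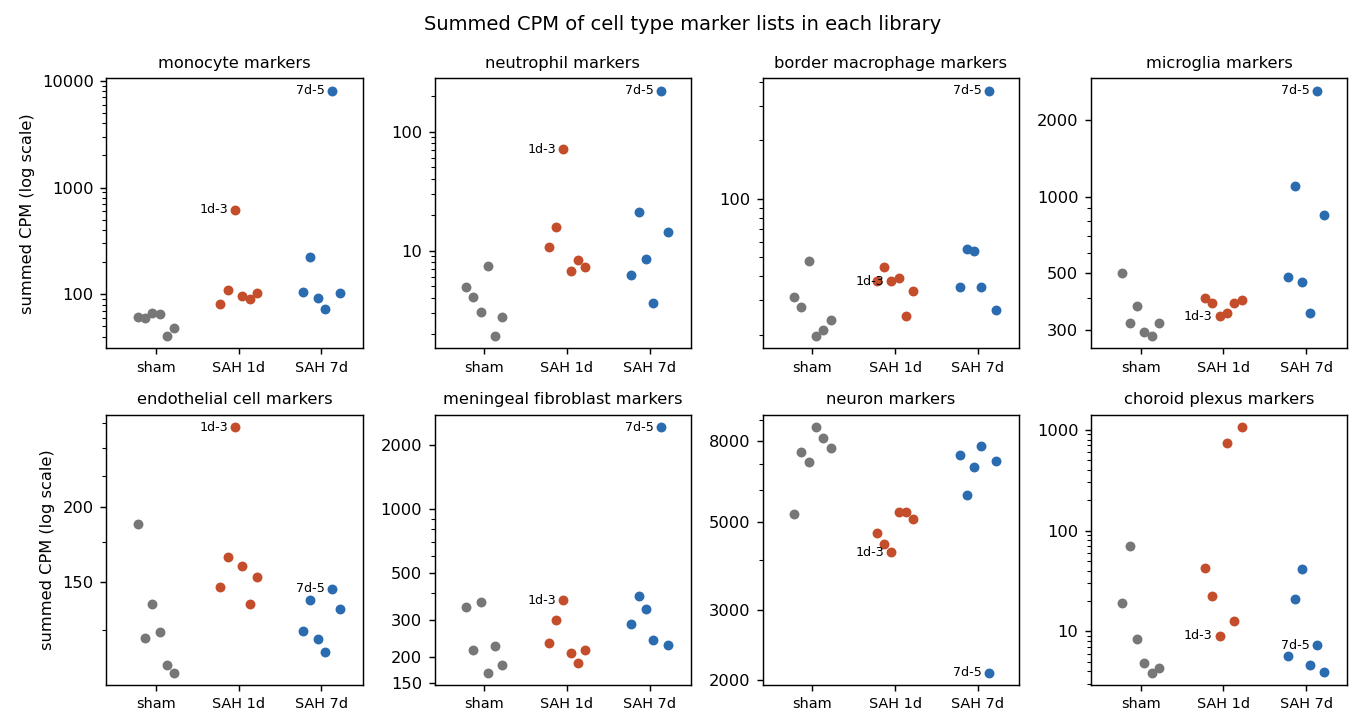
Summed CPM of 8 cell type marker lists (log axis, range differing between panels) in each library, by group, with SAH 1d-3 and SAH 7d-5 labelled. SAH 7d-5 is highest in the monocyte, neutrophil, border macrophage, microglia and meningeal fibroblast panels and lowest in the neuron panel, at 2085 CPM.

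Levels between genes were compared in FPKM, which accounts for transcript length. In sham the order of median FPKM was Plat at 20.1, Tfpi at 17.8, F3 at 14.4, Thbd at 2.31, F13a1 and Plaur at 1.13 each, F10 at 0.339 and Plau at 0.330, with Kng1 listed at 0. Neighbours in this order overlapped in range, other than F3 and Thbd, and Plau and Kng1. F3 was at 11.8 or more and Thbd at 3.59 or less in every sham library. Within each sham library Tfpi was nonetheless above F3, and Plaur above F10. The other overlapping neighbours changed order between sham libraries and were not told apart. At SAH 1d the first 4 places were unchanged, with medians of 37.9 for Plat, 30.1 for Tfpi, 19.5 for F3 and 5.62 for Thbd, and Plau was last at 1.06. Kng1 was the sixth at 2.31 FPKM at SAH 1d and the last at 0.0650 FPKM at SAH 7d. In SAH 7d-5 Plau reached 119 FPKM, above the highest FPKM of Plat in any group, 100.5.

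Genes whose level followed each of the 9 across libraries were listed by the Spearman correlation of log2 CPM centred within groups, over 18 libraries and 13974 genes with a symbol. All points share the depth and the 2 libraries that stood apart. Plau went with Ripk2 (0.94) and Cln8 (0.93), Plaur with Bcl2a1 and Pabpc4 (0.92 each), and Plat with Itpkc (0.87) and Snrnp70 (0.86). Tfpi went with Nfkb2 (0.91) and Ripk1 (0.90), Thbd with Creb3l1 (0.92) and Adam12 (0.86), and F3 with Cebpd (0.89) and Fam129b (0.88). F10 went with Epsti1 (0.90) and Cxcl10 (0.88), F13a1 with Rin3 and Dse (0.92 each), and Kng1 with Asl (0.90) and Ctsk (0.89). Kng1 had no count in any sham library, so its centred values there were all equal and its correlations rest on the SAH libraries. Over the 16 libraries left when both were excluded, Ripk2, Cln8 and Creb3l1 stayed among the first 3 of their gene. All the others named ranked lower, from 4 for Dse to 388.5 for Asl, the nearest of Kng1, which went from 0.90 to 0.48. Ctsk went from 0.89 to 0.55, Pabpc4 from 0.92 to 0.65, Itpkc from 0.87 to 0.71 and Adam12 from 0.86 to 0.71.

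The other genes of the pathway were taken from a list of 50, of which 46 are in the table and 32 passed the filter. The list was drawn up with earlier results of these data known. Its counts and adjusted p-values are therefore a description and not an independent test. In SAH 1d versus sham 18 of the 32 were called, 15 of them higher and 3 lower, and 15 by at least 2-fold, beside 25.4% of all tested genes called and 6.64% that also differed 2-fold. Their median log2 fold change was 0.83. In 11 of the 32 the groups did not overlap, all of them among the 18 called, beside 13.3% of all tested genes. Without SAH 1d-3 the count was 20, 4 of them lower, where 28.5% of all tested genes were called. All tests of these genes are edgeR's quasi-likelihood test with Benjamini-Hochberg adjustment over all 18444 genes.

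**Figure D5:**
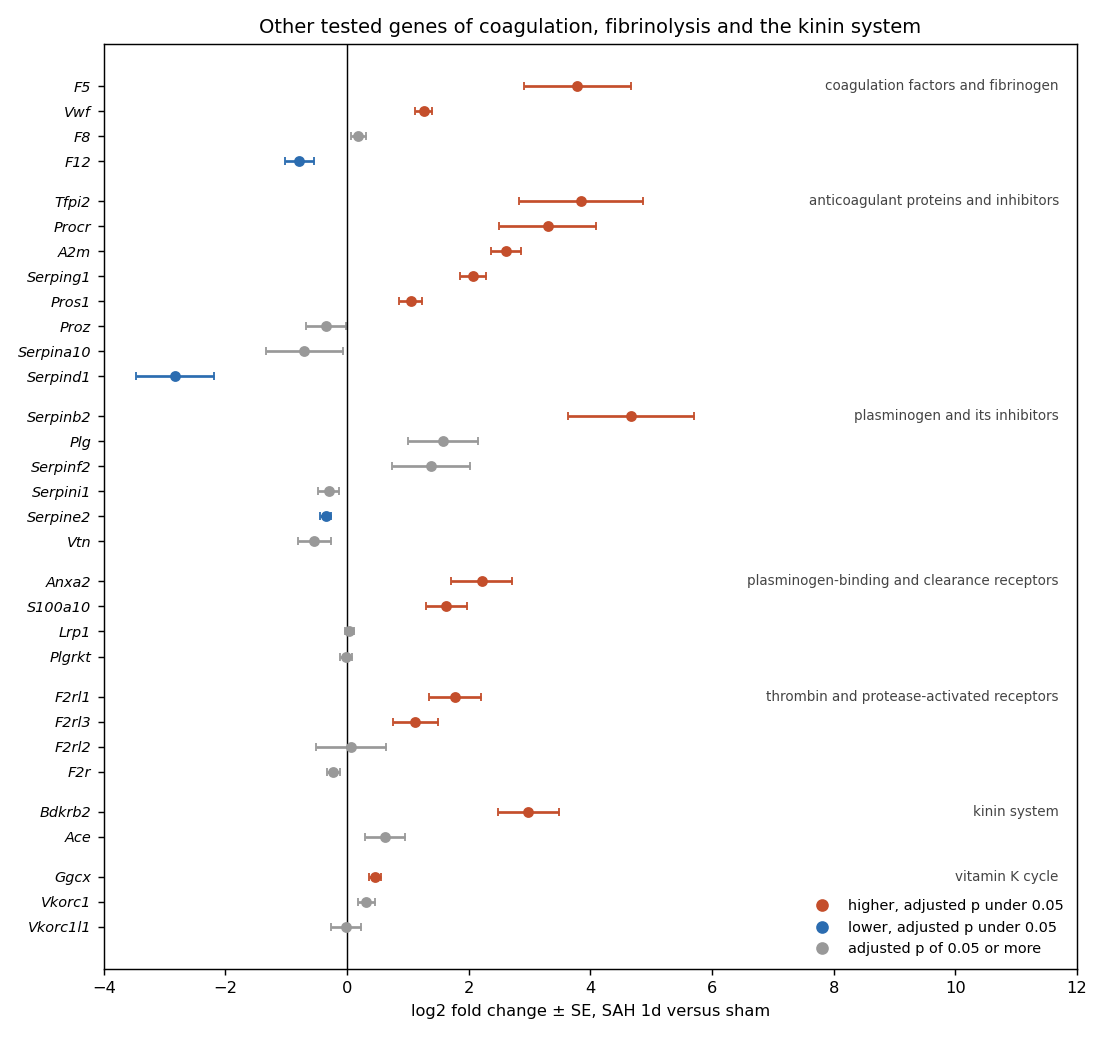
Log2 fold change in SAH 1d versus sham with its standard error for 31 of the 32 tested genes of the list, grouped by role. Red marks 14 of the genes called higher, blue the 3 called lower (F12, Serpind1 and Serpine2) and grey those not called, and Serpinb2 is the farthest from 0 of those drawn, at 4.67.

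Among plasminogen and its inhibitors, Serpinb2, an inhibitor of urokinase, rose by 4.67 on the log2 scale (SE 1.04, adjusted p = 0.00625) from a median of 0.0346 to 0.753 CPM, with 3 of 6 sham libraries at 0. Without SAH 1d-3, where it had 7.96 CPM against 2.28 CPM in the next library, it rose by 3.49. Serpine2, an inhibitor of thrombin and the activators made in brain, fell by 0.35 (SE 0.09, adjusted p = 0.0102), from a mean of 242 to 189 CPM. Plasminogen itself, Plg, had a median of 0.454 CPM in sham and 1.27 CPM at SAH 1d, with a log2 fold change of 1.58 (SE 0.58) and an adjusted p of 0.0573, which became 0.0148 without SAH 1d-3.

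Of the coagulation factors and fibrinogen chains, 4 of 13 passed the filter and 3 were called. F5, the cofactor of factor X, rose by 3.78 (SE 0.88, adjusted p = 0.00813). Its values in the SAH 1d libraries ran from 1.19 to 35.4 CPM with a median of 3.60, and the 2 highest, SAH 1d-6 and SAH 1d-4 at 29.0 CPM, were also those with the highest sums of choroid plexus markers, 1056 and 731 CPM against 9.03 to 42.5 CPM in the other SAH 1d libraries, and that tissue's part in F5 was not tested. Vwf, the von Willebrand factor of endothelium, rose by 1.26 (SE 0.14, adjusted p = 8.27e-05), and F12 fell by 0.79 (SE 0.24, adjusted p = 0.0309). F9, F11 and F13b had no count in any library. F2, F7, Klkb1 and the fibrinogen chains Fga, Fgb and Fgg were detected without passing the filter, with at most 44 counts in a library, as were Proc, Serpinc1, Serpina5, Cpb2 and Bdkrb1 of the other lists.

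Of the 8 tested anticoagulant proteins and inhibitors 5 rose and 1 fell. Tfpi2, a relative of Tfpi, rose by 3.84 (SE 1.02, adjusted p = 0.0156), and by 1.41 (adjusted p = 0.00707) without SAH 1d-3, where it had 70.8 CPM against 3.97 CPM in the next library. Procr, the protein C receptor, which works beside Thbd, rose by 3.30 (SE 0.80, adjusted p = 0.0102), and by 1.58 without SAH 1d-3. A2m, a broad protease inhibitor, rose by 2.61 (SE 0.25, adjusted p = 3.43e-05) and by nearly as much, 2.55, without that library, but its adjusted p was 0.0990 with all 18 libraries in one fit. Serping1, the inhibitor of the contact system and complement, and Pros1, the cofactor of protein C, also rose, by 2.08 and 1.04. Serpind1, heparin cofactor II, fell by 2.83 (SE 0.64, adjusted p = 0.00648), from a median of 0.581 to 0.0657 CPM. It had only 4 to 33 counts in a sham library and 0 to 5 in a SAH 1d library. The groups overlapped, with 4 of 6 SAH 1d libraries below every sham library.

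Among the receptors, Anxa2 and S100a10, which together bind plasminogen at the cell surface, rose by 2.21 (SE 0.50, adjusted p = 0.00708) and 1.63 (SE 0.34, adjusted p = 0.00485). Anxa2 had 311 CPM in SAH 1d-3 against 59.2 CPM in the next library, and rose by 1.29 without SAH 1d-3. The clearance receptor Lrp1 and Plgrkt had log2 fold changes of 0.04 and -0.02 and were not called. Of the 4 protease-activated receptors F2rl1 and F2rl3 rose, by 1.78 and 1.12, and F2rl1 by 1.15 without SAH 1d-3, where it had 16.2 CPM against 4.51 CPM in the next library. Bdkrb2, the bradykinin receptor that responds to the peptide carried by Kng1, rose by 2.98 (SE 0.50, adjusted p = 0.00131), from a median of 0.240 to 1.29 CPM, with no overlap between the groups. Ggcx, the enzyme that makes the factors able to bind calcium, rose by 0.46 (SE 0.10, adjusted p = 0.00618).

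In SAH 7d versus sham edgeR called 0 of the 32, beside 0% of all tested genes, and DESeq2 called 3. At an unadjusted p under 0.05 were 14 of the 32, beside 15.4% of all tested genes. The median log2 fold change was 0.37. In SAH 7d versus SAH 1d 1 of the 32 was called, beside 1.37% of all tested genes. This was Plg, which fell by 1.86 (SE 0.40, adjusted p = 0.0391) from a median of 1.27 to 0.287 CPM. Plg lost the call in 10 of the 12 fits that leave out 1 library, with adjusted p from 0.00158 to 0.0962 over the 12. Without SAH 7d-5, 13 of the 32 were called, 11 lower and 2 higher, beside 8.38% of all tested genes called in either direction. Those lower included Serpinb2 at -3.87 (adjusted p = 0.0405), F5 at -3.65 (adjusted p = 0.0395), Bdkrb2 at -1.95 (adjusted p = 0.0276), and A2m at -1.77 (adjusted p = 0.00379), which was at 2.03 with SAH 7d-5 kept, and the 2 higher were Serpind1 at 2.28 (adjusted p = 0.0343) and Serpine2 at 0.34 (adjusted p = 0.0238).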

How the data were processed

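The authors had reads filtered and aligned to the rat Rnor_6.0 genome per the study's methods, while the submitters' processing notes name the mouse build mm9, fastp, HISAT2 and DESeq2 1.16.1. The authors deposited raw, unnormalized whole-number counts for each gene in each library, and beside them FPKM values scaled by transcript length and depth. Libraries were grouped by the descriptions in the labels, which equal the column names, while the titles of the SAH libraries carry other codes. The members and the gene lists were chosen with earlier results of these data known.

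Counts were tested with edgeR 4.0.16 in R 4.3.3 (filterByExpr over 18 libraries, TMM, quasi-likelihood F test on the 12 libraries of each comparison, two-sided, Benjamini-Hochberg over 18444 genes). Genes were called at an adjusted p under 0.05, and counted as differing 2-fold where the log2 fold change was at least 1 in either direction. The standard error is the coefficient divided by the root of F. For a group without counts, folds were taken against 3 counts over the group. All members were named, and of the pathway list the 8 largest called changes per comparison, with others named after their values were seen and 1 gene not reported here. The genes most alike were the 2 with the highest Spearman correlation. The tests were checked on simulated data. Alternatives used DESeq2 1.42.0 and limma 3.58.1 on log2(FPKM + 1) and log2(FPKM + 0.1). Libraries are separate samples per the labels, and p-values measure the spread between them. Figures used Python 3.11.15 and matplotlib 3.10.9.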

Additional observations from a re-analysis of the deposited data

Results flagged for a closer look

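Libraries that lay far from the other 5 of their group were looked for in 26 sets of values, each 1 gene in 1 group of 6, by the gap to the nearest library over the whole range (Dixon's 95% limit). For normally distributed values chance alone flags about 1 in 20 such sets, and the sets share libraries. The limit was applied to CPM without a log, so that rate may not hold here. All 12 values past the limit were the highest of their group and came from SAH 1d-3 and SAH 7d-5, 6 from each, while no sham library was past it. In SAH 1d-3 these were Plau at 12.4 CPM, Plat at 259 CPM, Plaur at 21.0 CPM, Tfpi at 98.9 CPM, Thbd at 85.4 CPM and Kng1 at 40.6 CPM. In SAH 7d-5 they were Plau at 228 CPM, Plaur at 17.1 CPM, F10 at 26.2 CPM, F13a1 at 31.5 CPM, Tfpi at 86.5 CPM and Kng1 at 14.7 CPM. Plau, Plaur, Tfpi and Kng1 were thus far out in both libraries, Plat and Thbd in SAH 1d-3, and F10 and F13a1 in SAH 7d-5. F3 was past the limit in neither.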

How the results depend on the processing

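In SAH 1d versus sham no fold change of the 9 genes turned negative in any alternative where it was recorded. With DESeq2 it was not recorded for Plaur and Kng1, which got no adjusted p. Kng1 and F10 did not enter the setting with at least 10 counts in every library. The number called was 5 with all 18 libraries in one fit, 6 to 9 when 1 library was left out, and 7 with DESeq2. The number of the 32 other pathway genes called was 16 to 20 with 1 library left out. In this comparison the share of all tested genes called also differed between settings. It was 25.4% in the main fit and 13.3% with all 18 libraries in one fit. Counts called under the alternatives are therefore not read as results about these genes. In SAH 7d versus sham DESeq2 called 1 of the 9 and 3 of the 32, where edgeR called 0, and Plaur turned to -0.085 without SAH 7d-5, alone or together with SAH 1d-3. In SAH 7d versus SAH 1d the number of the 32 called was 5 with DESeq2, 4 with all 18 libraries in one fit, 14 with SAH 1d-3 and SAH 7d-5 left out together, 0 to 13 with 1 library left out, and 0 with no filter on low counts, with at least 10 counts in every library and with limma on FPKM at either pseudocount or without a filter. The share of all tested genes called moved here too, from 1.37% in the main fit to 8.38% without SAH 7d-5. It is not given for the other settings, so nothing is read from the counts of the 32 or of the 9. The number of the 9 called was 3 with both left out and 0 to 3 with 1 library left out. The log2 fold changes then ranged from -0.12 to 4.30 for Plau, -2.52 to 0.35 for Plaur, -0.38 to 0.034 for F3, -0.14 to 1.21 for F10 and -0.13 to 0.68 for F13a1, the ends below or above 0 against the sign with all libraries coming from SAH 7d-5 or SAH 1d-3. Plaur against sham ranged from -0.085 to 1.96. With both libraries out, F10 was at -0.19 and F13a1 at -0.013, while Plau stayed above 0 at 0.75.

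Replicate numbers did not pair the libraries: 1 of 18 correlations between the deviations of same-numbered libraries was over 0.1. With the replicate number as a block, 8 of the 9 and 15 of the 32 were called in SAH 1d versus sham, and 0 of the 9 and 0 of the 32 in SAH 7d versus sham and in SAH 7d versus SAH 1d. The share of all tested genes called with the block is not given beside these counts, so nothing is read from them. The depth of Kng1 and F10 in sham, 0 and 3 to 48 counts in a library, limits their folds. So does that of Serpind1 at SAH 1d, 0 to 5 counts in a library. The cause of each dependence was not tested.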
